A study of Mus musculus with 24 samples.

Results

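The mRNA levels of 33 genes of sterol synthesis, its control and sterol export were followed in βTC3 cells. This insulin-producing line was derived from the pancreatic neuroendocrine tumours of Rip-Tag2 mice. None of the 33 genes encodes a lipoprotein receptor. The genes were listed by name for their known roles: 7 early enzymes that lead from acetyl-CoA to farnesyl diphosphate, 11 late enzymes that build cholesterol from it, 2 enzymes of side branches, 2 sterol carriers, 6 genes that control the sterol-sensing transcription factors SREBP, and 5 genes of the liver X receptors (LXR) and of sterol export. All 33 were present among the 46517 genes of the count table, and all 33 were among the 14866 genes that passed the filter on low counts.

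The study held 8 groups of 3 libraries. The control line carried the plasmid PB-31 and was cultured either without doxycycline (DOX, a tetracycline antibiotic used to switch on inducible genes) for 7 days or with DOX at 2 µg/ml for 7 days. The miR-23b line carried PB-31 with the miR-23b cluster, a cluster that also encodes miR-24 and miR-27b, and the miR-137 line carried PB-31 with miR-137. Both microRNA lines were sampled without DOX, after 7 days of DOX, and after 7 days of DOX followed by another 7 days in medium without it. No control culture was taken through withdrawal, and no untreated culture was kept for as long as the withdrawn ones, so time in culture and withdrawal cannot be told apart. The labels give no date, plate or sequencing run for any library, and DOX cannot be told apart from a batch shared by the treated cultures. Cells were plated in triplicate and nothing says that replicates came from separate cultures, so the p-values measure the spread between these samples, which may be technical. Nothing read here says whether the lines are clones or pools.

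Cholesterol is made from acetyl-CoA through mevalonate, farnesyl diphosphate, squalene and lanosterol. When sterols in the endoplasmic reticulum fall, the carrier protein SCAP brings SREBP2 and SREBP1 to the Golgi, where site-1 protease (Mbtps1) begins to release the active transcription factors, which raise most synthesis enzymes, Insig1 and the lipoprotein receptors; INSIG proteins hold SCAP back when sterols are plentiful. Oxysterols instead activate the LXR receptors, which raise the exporters Abca1 and Abcg1, the receptor-degrading ligase Mylip and Srebf1. In beta cells, cholesterol content is known to affect insulin granules and secretion.

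The libraries held between 15759849 and 24144737 reads counted in genes, and the induced loci matched the labels. Mir27b, of the miR-23b cluster, had 79.6 to 90.1 CPM (counts scaled to library size) in the miR-23b libraries with DOX and at most 0.55 CPM in all others. The Mir137 gene itself was at 0 in all 24 libraries, which allows up to 3 counts in each, but Gm26871, whose annotated span holds it, had 120.9 to 126.3 CPM in the miR-137 libraries with DOX against at most 6.15 CPM elsewhere. After withdrawal Mir27b was at most 0.21 CPM in the miR-23b line and Gm26871 at most 3.48 CPM in the miR-137 line. All 13 beta cell markers were present, with a summed level of 17229.7 to 21429 CPM over the groups, whereas the 5 leukocyte markers summed to 1.90 to 4.60 CPM and the 4 endothelial markers to 0.105 to 1.25 CPM. Fibroblast markers summed to 2.24 to 4.53 CPM and exocrine markers to 1.28 to 4.09 CPM, with Cpa1 and Cela3b at 0 in every library of 6 of the 8 groups. The exocrine sum was lower in the no DOX groups (at most 2.53 CPM) than in the others (at least 3.32 CPM). The endothelial sum was 0.105 to 0.299 CPM without DOX and 0.721 to 1.25 CPM with it in the control line, and 0.127 to 0.275 and 0.628 to 0.693 CPM in the miR-23b line. The fibroblast sum was 2.29 to 3.69 and 4.14 to 4.53 CPM in the control line and 2.31 to 2.41 and 3.19 to 4.22 CPM in the miR-23b line, and the leukocyte sum in the miR-23b line was 1.90 to 2.42 and 2.99 to 4.60 CPM. In the miR-137 line these 3 sums overlapped between DOX and no DOX. The part of these markers in the results was not tested. Since these are bulk RNA samples, fewer cells of a kind and less RNA per cell cannot be told apart.

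3 kinds of sequence bear on these genes: the microRNAs that were induced, their seed matches in the transcripts, and the promoters. The mature microRNAs available from RefSeq (GRCm38.p6) are shown 5′ to 3′ with the seed, bases 2 to 8, in capitals, because a seed match in a 3′ UTR is the usual way a microRNA finds a transcript. They lie at chr13:63300760-63300780 (miR-27b-3p), chr13:63301251-63301272 (miR-24-3p) and chr3:118433901-118433923 (miR-137-3p), all on the plus strand, and no 2 of the 3 share a seed. The third member of the cluster, miR-23b-3p, is named only, and its seed was not searched.
miR-27b-3p: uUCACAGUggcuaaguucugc
miR-24-3p: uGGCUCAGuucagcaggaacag
miR-137-3p: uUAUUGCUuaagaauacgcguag

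The 3 seeds were searched in the annotated 3′ UTRs. A match to miR-27b-3p stood in the 3′ UTR of 2 of 33 members (6.06%) against 17.9% of 12979 tested genes with an annotated 3′ UTR, a match to miR-24-3p in 2 members (6.06%) against 19.6%, and a match to miR-137-3p in 3 members (9.09%) against 10.6%. The median 3′ UTR was 972 bases long in the members and 1201 in the tested genes, and no allowance was made for that. The 4 members with a match to miR-27b-3p or miR-24-3p were Sc5d, Abca1, Ggps1 and Insig1, and the 3 with a miR-137 seed were Hsd17b7, Stard4 and Insig1. 6 of the windows are shown as DNA, with the match in capitals, so that they can be read beside the responses below; a match is a description of letters and not a shown binding site.
Insig1, chromosome 5, miR-24-3p match at base 967 of the 3′ UTR: tgaaaaccaatCTGAGCCttgtattctc
Insig1, chromosome 5, miR-137-3p match at base 1074: gaggcacactcAGCAATActgtgtcagc
Abca1, chromosome 4, miR-27b-3p match at base 2459: aaaacttactaACTGTGAatatgagaaa
Sc5d, chromosome 9, miR-27b-3p match at base 2454: agacactgatcACTGTGAattatcttga
Ggps1, chromosome 13, miR-24-3p match at base 254: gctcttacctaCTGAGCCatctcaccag
Hsd17b7, chromosome 1, miR-137-3p match at base 1924: atgaattattaAGCAATAttcaatgctc

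The promoters were searched because most enzymes moved together. RefSeq (GRCm38.p6) gave a window of 250 bases before to 50 after the start for 28 of 33 members, and both strands were searched for the sterol regulatory element core TCACNCCAC, the CCAAT box (bound by NF-Y, a partner of SREBP), the GC box GGGCGG and the E-box CACGTG. In the first listed window of each gene, a CCAAT box stood in 20 of 28 members (71.4%) and in 13 of 15 enzymes of the main route (86.7%), against 38.9% of 10851 tested genes with a window and 37.9% of all 27025 genes with one. It stood in 1 of 4 genes of the LXR and export group (25%), the LXR target Mylip. A GC box was found in 75% of the members against 65.0% of tested genes, and an E-box in 17.9% against 10.1%. The sterol regulatory element core stood in 1 member, Hmgcs1 (3.57% of 28), against 0.995% of tested genes. The promoter of Hmgcs1 (chr13:119690101-119690400, plus strand), which holds that core and 4 CCAAT boxes, is shown with both in capitals, beside that of Mvk (chr5:114444019-114444318, plus strand) with 5 CCAAT boxes, that of Insig1 (chr5:28071162-28071461, plus strand), the gene that fell most, with 1, and that of Abca1 (chr4:53159846-53160145, minus strand), an LXR target, with none. ATTGG is the CCAAT box read on the other strand.
Hmgcs1: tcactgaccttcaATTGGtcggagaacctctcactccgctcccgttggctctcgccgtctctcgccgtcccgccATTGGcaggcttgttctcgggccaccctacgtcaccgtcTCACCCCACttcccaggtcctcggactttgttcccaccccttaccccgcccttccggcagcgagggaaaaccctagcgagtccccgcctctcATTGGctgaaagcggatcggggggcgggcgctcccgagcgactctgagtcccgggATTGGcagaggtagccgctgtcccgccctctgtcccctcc
Mvk: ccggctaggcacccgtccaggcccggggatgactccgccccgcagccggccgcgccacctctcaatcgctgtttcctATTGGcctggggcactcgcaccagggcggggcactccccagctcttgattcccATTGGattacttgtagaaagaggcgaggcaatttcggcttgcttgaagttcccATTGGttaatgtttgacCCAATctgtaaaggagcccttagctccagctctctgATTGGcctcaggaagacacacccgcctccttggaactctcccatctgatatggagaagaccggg
Insig1: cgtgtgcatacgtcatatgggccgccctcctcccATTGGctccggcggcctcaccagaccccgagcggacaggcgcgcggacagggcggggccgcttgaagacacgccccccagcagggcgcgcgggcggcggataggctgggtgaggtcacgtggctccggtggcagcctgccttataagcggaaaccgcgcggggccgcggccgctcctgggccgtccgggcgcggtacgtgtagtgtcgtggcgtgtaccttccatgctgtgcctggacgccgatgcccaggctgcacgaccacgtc
Abca1: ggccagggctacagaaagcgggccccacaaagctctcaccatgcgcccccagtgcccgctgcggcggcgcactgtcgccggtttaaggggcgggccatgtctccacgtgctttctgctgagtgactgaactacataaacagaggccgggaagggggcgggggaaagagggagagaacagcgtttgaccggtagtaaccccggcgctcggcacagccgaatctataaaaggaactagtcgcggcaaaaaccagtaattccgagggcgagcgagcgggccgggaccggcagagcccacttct

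In untreated control cells, per kilobase of annotated exon, Insig1 had the highest level of the 33 genes at 84.5 CPM per kb, followed by Srebf1 at 51.5, Stard4 at 42.6 and Srebf2 at 40.7. The LXR receptor Nr1h3 (LXR alpha) had the lowest, 0.774 CPM per kb, and Nr1h2 (LXR beta) had 21.5. Fdps and Idi1 stood low on this scale, at 5.56 and 4.79 CPM per kb. In the authors' table of length-scaled transcript abundance (TPM) they had 481 and 179.8 units. Nothing read here says how that table treats reads that map to several places. In Fdps, 51.1% of all 50-base stretches also occur elsewhere in the transcriptome, mostly in processed pseudogenes, and 77.3% lie in the overlapping gene Gm43738. The like shares were 45.9% for Acat2, 21.3% for Idi1, 20.8% for Tmem97 and 10.9% for Fdft1, so the levels of these 5 genes are uncertain.

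**Figure D1:**
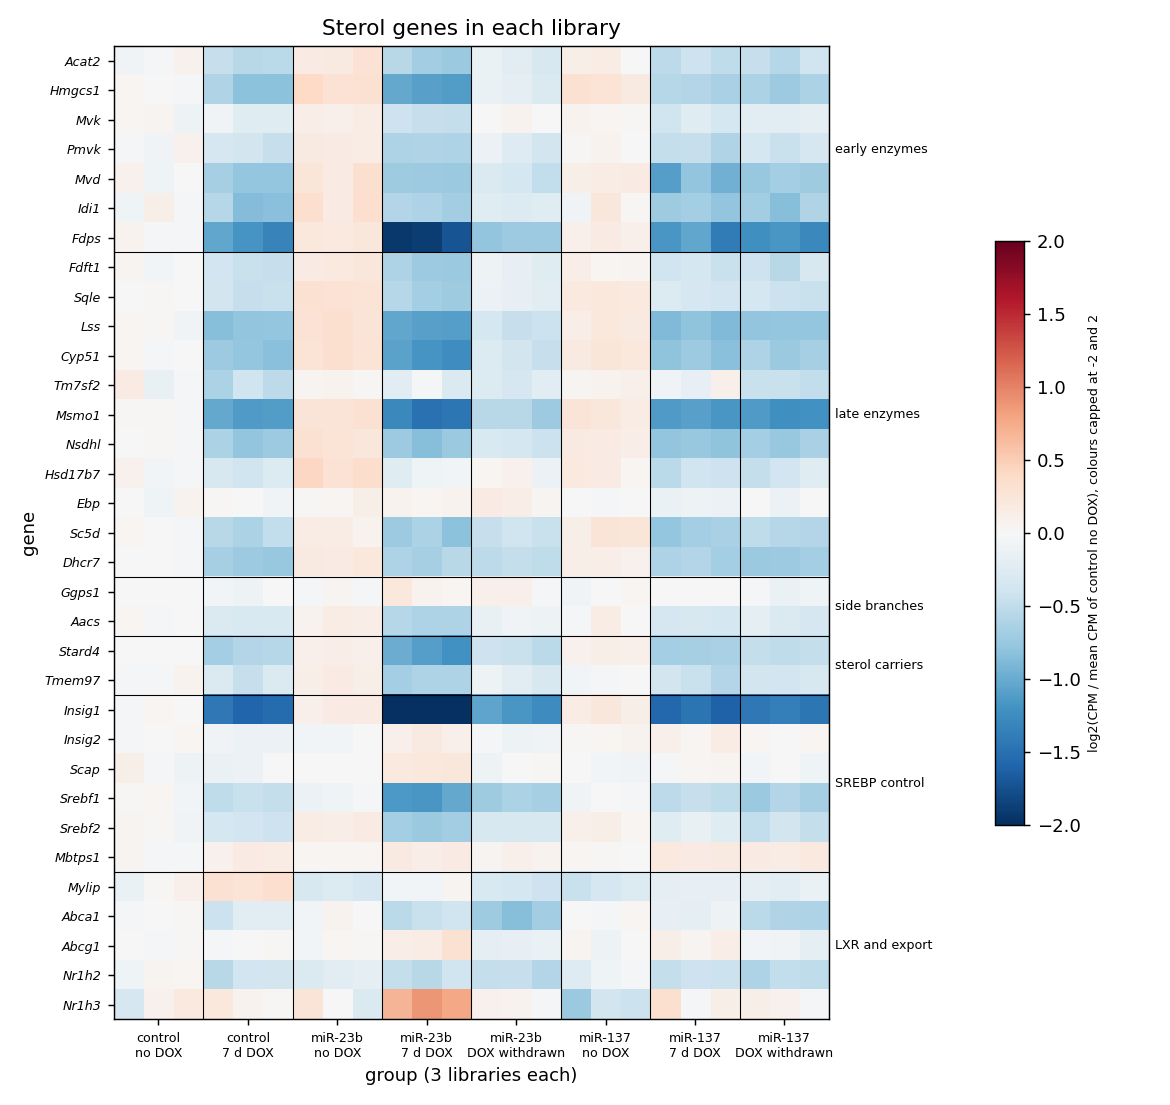
Each of the 33 genes (rows, by role) in each of the 24 libraries (columns, by group), as log2 of its CPM over the mean CPM of the 3 untreated control libraries, with blue for lower and red for higher. Nearly all enzymes are blue in the DOX and withdrawn libraries, and the row of Insig1 is darkest in the miR-23b libraries with DOX, at 39.5 to 42.1 CPM.

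The first question was what DOX did to the sterol genes in cells with PB-31 alone. The route to cholesterol fell: 17 of 18 enzymes were lower with DOX and the other, Ebp, was not called, with a median log2 fold change of -0.64 over the 18, where the median over all genes tested was 0.01. Over all 33 members, 26 were called lower and 2 higher. The groups of libraries did not overlap for 25 of the 26 that were lower. These genes were called from the same libraries, so their separation adds no support to the calls. Over all genes tested, called or not, 46.7% had groups that did not overlap, in either direction. The background was broad, since 37.8% of all genes tested were called and 19.3% were called lower. Calls are at an adjusted p below 0.05 in edgeR's quasi-likelihood test, with Benjamini-Hochberg adjustment over all genes tested.

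Among the early enzymes, Hmgcs1, which makes the precursor of mevalonate, had 170.0, 164 and 160.0 CPM in the untreated control libraries and 109, 93.4 and 93.4 CPM with DOX (log2 fold change -0.74 ± 0.047 SE, edgeR adjusted p = 5.4e-16). The 3 treated libraries lay well below the 3 untreated ones. Fdps, which makes farnesyl diphosphate, fell from 24.5, 23.0 and 22.6 CPM to 11.3, 10.3 and 9.25 CPM (log2 fold change -1.19 ± 0.073 SE, edgeR adjusted p = 3.4e-16). On the authors' TPM scale its log2 difference was -0.96, a fall as well. The smallest change of the 7 was that of mevalonate kinase, Mvk, at -0.18 ± 0.054 SE, whose libraries overlapped (30.5 to 34.1 CPM without DOX and 27.6 to 31.3 CPM with it). Mvd and Idi1, the next enzymes of this stretch, changed by -0.74 ± 0.062 and -0.74 ± 0.087, Acat2 (acetoacetyl-CoA thiolase) by -0.52 ± 0.055, and Pmvk by -0.38 ± 0.054 SE.

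Among the late enzymes the fall was steepest at Msmo1, a methylsterol oxidase that removes methyl groups from lanosterol products. Its levels were 163, 163 and 157 CPM without DOX and 79.5, 73.5 and 74.1 CPM with it (log2 fold change -1.09 ± 0.044 SE, edgeR adjusted p = 8e-22), and all 3 treated libraries lay well below the untreated ones. Lss, which closes the sterol rings, changed by -0.80 ± 0.037 and Cyp51, the lanosterol demethylase, by -0.78 ± 0.043 SE. Nsdhl and Dhcr7, which act near the end of the route, changed by -0.72 ± 0.047 and -0.72 ± 0.040 SE. Squalene synthase (Fdft1) and squalene epoxidase (Sqle), at the entry of this stretch, changed less, by -0.43 ± 0.047 and -0.42 ± 0.036 SE. Sc5d, Tm7sf2 and Hsd17b7 changed by -0.56 ± 0.055, -0.52 ± 0.088 and -0.33 ± 0.066 SE. Ebp, the sterol isomerase, was the exception: it had 58.6, 54.8 and 60.9 CPM without DOX and 58.8, 57.5 and 55.2 CPM with it (log2 fold change -0.03 ± 0.044 SE, edgeR adjusted p = 0.69).

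Outside the main route, Ggps1, which turns farnesyl diphosphate to geranylgeranyl diphosphate for protein prenylation, was not called in the control line (-0.06 ± 0.043 SE), whereas Aacs, which feeds ketone bodies into lipid synthesis, fell (-0.30 ± 0.038 SE). Both sterol carriers fell: Stard4, which moves cholesterol through the cytosol, from 238 ± 1.8 to 156 ± 6.8 CPM (mean ± SD, n = 3; log2 fold change -0.61 ± 0.037 SE, edgeR adjusted p = 1.4e-16), and Tmem97, the sigma-2 receptor, from 43.6 ± 1.8 to 34.3 ± 2.4 CPM (log2 fold change -0.35 ± 0.055 SE, edgeR adjusted p = 2.1e-06).

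The genes of SREBP control split. Insig1, itself a target of SREBP, had 254, 267 and 262 CPM without DOX and 96.9, 87.0 and 89.8 CPM with it (log2 fold change -1.52 ± 0.043 SE, edgeR adjusted p = 1.8e-26). By log2 fold change it had rank 62 from the lowest of 14866 genes, the lowest rank of the 33 members. Srebf2, the gene of SREBP2, fell from 302, 297 and 278 CPM to 230.0, 224 and 219 CPM (log2 fold change -0.38 ± 0.035 SE, edgeR adjusted p = 2.1e-11), and Srebf1 fell from 290.1 ± 10 to 209 ± 4.4 CPM (log2 fold change -0.47 ± 0.037 SE, edgeR adjusted p = 2.1e-13). In contrast, Insig2 changed by -0.11 ± 0.040 SE (adjusted p = 0.032, a call lost under 5 of 7 alternative analyses), Scap was not called (-0.09 ± 0.046 SE), and Mbtps1 was slightly higher (log2 fold change 0.13 ± 0.029 SE, edgeR adjusted p = 0.00027).

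The LXR and export genes followed no common direction. Abca1, which loads cholesterol onto apolipoproteins outside the cell, fell from 65.4, 66.5 and 67.5 CPM to 49.4, 56.8 and 56.6 CPM (log2 fold change -0.29 ± 0.048 SE, edgeR adjusted p = 6e-06). Abcg1, the other exporter, was 45.0 and 44.8 CPM on average without and with DOX and was not called. Mylip, the ligase that sends lipoprotein receptors for degradation, rose from 12.1, 13.5 and 14.3 CPM to 16.4, 15.97 and 16.7 CPM (log2 fold change 0.30 ± 0.068 SE, edgeR adjusted p = 0.00045). Nr1h2 fell (-0.43 ± 0.054 SE), and Nr1h3, at 1.55 to 2.22 CPM without DOX, was not called (0.11 ± 0.17 SE).

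**Figure D2:**
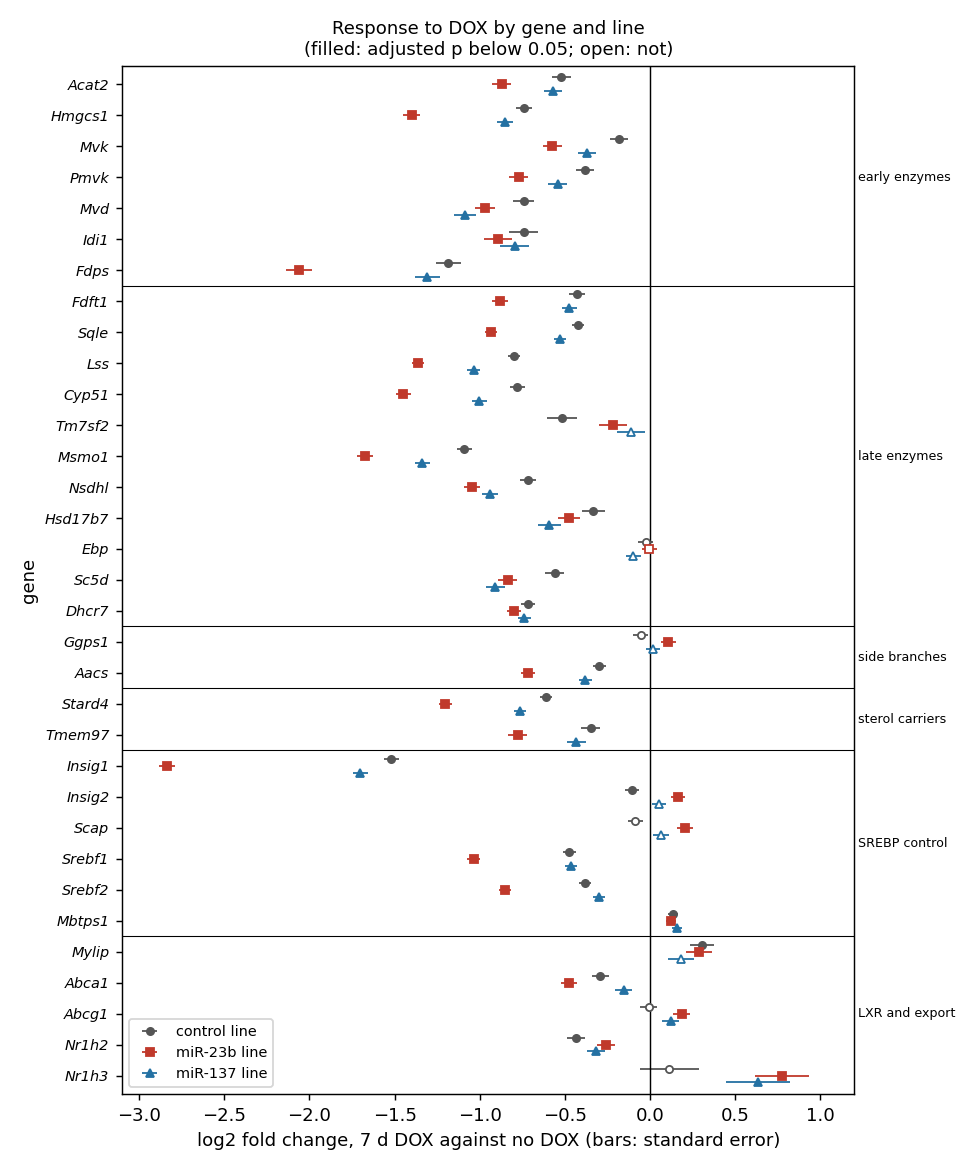
Log2 fold change with 7 days of DOX against no DOX (horizontal axis, bars are standard errors) for each gene in the control, miR-23b and miR-137 lines, with filled symbols where the adjusted p is below 0.05. The enzymes lie left of 0 in all 3 lines, with the miR-23b line mostly farthest left, while Insig2, Scap, Mbtps1 and the LXR genes other than Abca1 and Nr1h2 lie near or right of 0.

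In the miR-23b line the same contrast gave larger falls. With DOX, 17 of 18 enzymes were lower, with a median of -0.89, and all 7 early enzymes fell. Over the 33 members, 25 were lower and 7 higher, on a background of 57.4% of genes called and 28.6% called lower. Hmgcs1 went from 217, 202 and 203 CPM to 81.5, 77.7 and 76.2 CPM (log2 fold change -1.40 ± 0.047 SE, edgeR adjusted p = 5.7e-25), and Fdps from 27.0, 26.7 and 27.3 CPM to 6.16, 6.28 and 7.09 CPM (log2 fold change -2.06 ± 0.079 SE, edgeR adjusted p = 2.7e-23). On the TPM scale Fdps changed by -1.61. Msmo1, Cyp51, Lss and Sqle changed by -1.67 ± 0.044, -1.45 ± 0.043, -1.36 ± 0.037 and -0.93 ± 0.036 SE. Tm7sf2, a sterol reductase, changed only by -0.22 ± 0.084 SE, and Ebp stayed uncalled at 60.8 ± 2.2 and 60.6 ± 0.79 CPM.

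Insig1 changed most of all members here. Its levels were 279, 292 and 292 CPM without DOX and 39.5, 39.8 and 42.1 CPM with it (log2 fold change -2.83 ± 0.047 SE, edgeR adjusted p = 9.6e-35), rank 33 from the lowest of 14866 genes. Srebf1 fell from 268, 274 and 281 CPM to 130.5, 129.7 and 143 CPM (log2 fold change -1.03 ± 0.038 SE, edgeR adjusted p = 1.1e-23), and Srebf2 from 324, 322 and 328 CPM to 183, 176 and 182 CPM (log2 fold change -0.85 ± 0.036 SE, edgeR adjusted p = 5.7e-22). The other 3 control genes were higher: Insig2 rose from 55.1, 55.0 and 58.0 CPM to 61.7, 64.7 and 61.7 CPM (log2 fold change 0.16 ± 0.039 SE, edgeR adjusted p = 0.00051), Scap from 73.1 ± 0.19 to 84.4 ± 0.94 CPM (log2 fold change 0.21 ± 0.045 SE, edgeR adjusted p = 0.00018), and Mbtps1 by 0.12 ± 0.029 SE. The 3 libraries with DOX lay above the 3 without it for each of these 3 genes. Over all 14866 genes tested, 9132 had groups that did not overlap in this comparison, in either direction.

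Of the LXR and export genes in the miR-23b line, 2 fell and 3 rose. Abca1 went from 64.2, 69.5 and 66.9 CPM to 45.5, 48.8 and 50.6 CPM (log2 fold change -0.48 ± 0.049 SE, edgeR adjusted p = 1.2e-10), and Nr1h2 changed by -0.26 ± 0.055 SE. Abcg1 rose from 43.1, 46.5 and 45.8 CPM to 49.2, 49.95 and 55.8 CPM (log2 fold change 0.19 ± 0.049 SE, edgeR adjusted p = 0.0013). Mylip rose from 10.7 ± 0.25 to 13.1 ± 0.61 CPM (log2 fold change 0.29 ± 0.074 SE, edgeR adjusted p = 0.0011). Nr1h3 rose from 2.33, 1.96 and 1.60 CPM to 3.11, 3.57 and 3.33 CPM (log2 fold change 0.77 ± 0.16 SE, edgeR adjusted p = 6e-05), on few reads. The targets of LXR thus did not move as 1 group: Abca1 and Srebf1 fell while Abcg1 and Mylip rose.

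In the miR-137 line, 16 of 18 enzymes were lower, with a median of -0.77, and 24 of the 33 members were lower and 3 higher, against 42.9% of all genes called and 21.8% called lower. Hmgcs1 had 203, 199 and 187 CPM without DOX and 111, 110.2 and 105 CPM with it (log2 fold change -0.85 ± 0.046 SE, edgeR adjusted p = 3.7e-18). Insig1 had 289, 305 and 283 CPM and 88.5, 95.5 and 85.5 CPM (log2 fold change -1.70 ± 0.043 SE, edgeR adjusted p = 2.1e-28), and again no library of one group reached the other. Mvd, the decarboxylase of the mevalonate pathway, changed by -1.09 ± 0.063 SE here and by -0.97 ± 0.061 SE in the miR-23b line, a difference that was not called (miR-23b minus miR-137 0.12 ± 0.089 SE, edgeR adjusted p = 0.33). Tm7sf2 and Ebp were the 2 enzymes not called. Srebf1 and Srebf2 changed by -0.46 ± 0.037 and -0.30 ± 0.035 SE, Mbtps1 rose by 0.16 ± 0.029 SE, and Insig2 and Scap were not called. Abca1 fell by little, from 66.6 ± 1.8 to 59.8 ± 1.6 CPM (log2 fold change -0.16 ± 0.048 SE, edgeR adjusted p = 0.0076), Abcg1 was slightly higher (log2 fold change 0.12 ± 0.049 SE, edgeR adjusted p = 0.045), and Nr1h3 rose from 1.16, 1.502 and 1.45 CPM to 2.42, 1.91 and 2.11 CPM (log2 fold change 0.63 ± 0.19 SE, edgeR adjusted p = 0.0062). The call of Abcg1 was lost with DESeq2 (adjusted p = 0.076) and with no filter on low counts (edgeR adjusted p = 0.069). With limma on log2(TPM + 1), neither Abcg1 (adjusted p = 0.40) nor Abca1 (adjusted p = 0.056) was called.

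The difference between the responses was tested as an interaction. The fall in the miR-23b line exceeded that of the control line for 13 of 18 enzymes, and 1 enzyme, Tm7sf2, differed the other way (edgeR adjusted p = 0.049), a call lost under all 7 alternative analyses (adjusted p = 0.052 to 0.117). The median difference over the 18 was -0.37. Of the 33 members, 20 were lower and 6 higher in this difference, where 37.6% of all genes were called and 19.4% called lower. Insig1 had the largest difference, -1.32 ± 0.065 SE (adjusted p = 1.2e-18), followed by Fdps (-0.87 ± 0.11 SE), Cyp51 (-0.67 ± 0.061 SE) and Hmgcs1 (-0.66 ± 0.067 SE). Stard4 (-0.59 ± 0.053 SE), Srebf1 (-0.56 ± 0.053 SE) and Srebf2 (-0.47 ± 0.050 SE) differed in the same direction. The 6 that were higher in this difference were Tm7sf2, Ggps1, Insig2, Scap, Abcg1 and Nr1h3. Idi1, Hsd17b7, Ebp and Dhcr7 were the enzymes not called. For Dhcr7 the difference was -0.08 ± 0.056 SE. For Idi1, whose counts are uncertain, it was -0.15 ± 0.12 SE in counts and -0.40 in log2(TPM + 1), where limma called it (adjusted p = 0.00072).

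The miR-137 response differed from that of the control line in fewer genes. Of the 33 members 8 were called, 7 lower and 1 higher, against 10.7% of all genes. These were Mvd (-0.34 ± 0.090 SE), Sc5d (-0.35 ± 0.077 SE), Msmo1 (-0.25 ± 0.062 SE), Lss (-0.24 ± 0.052 SE), Cyp51 (-0.22 ± 0.060 SE), Nsdhl (-0.22 ± 0.067 SE) and Insig1 (-0.18 ± 0.061 SE), with Tm7sf2 (0.40 ± 0.12 SE) the other way. The count dropped to 5 without replicate 1 or without replicate 3 of the miR-137 libraries with DOX. For Hmgcs1 the difference was -0.11 ± 0.066 SE and was not called. Directly compared, the miR-23b response was the lower one for all 17 members called, where 35.2% of all genes were called, among them Insig1 (-1.13 ± 0.065 SE), Fdps (-0.75 ± 0.11 SE), Srebf1 (-0.57 ± 0.053 SE), Srebf2 (-0.55 ± 0.050 SE) and Hmgcs1 (-0.55 ± 0.066 SE).

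**Figure D3:**
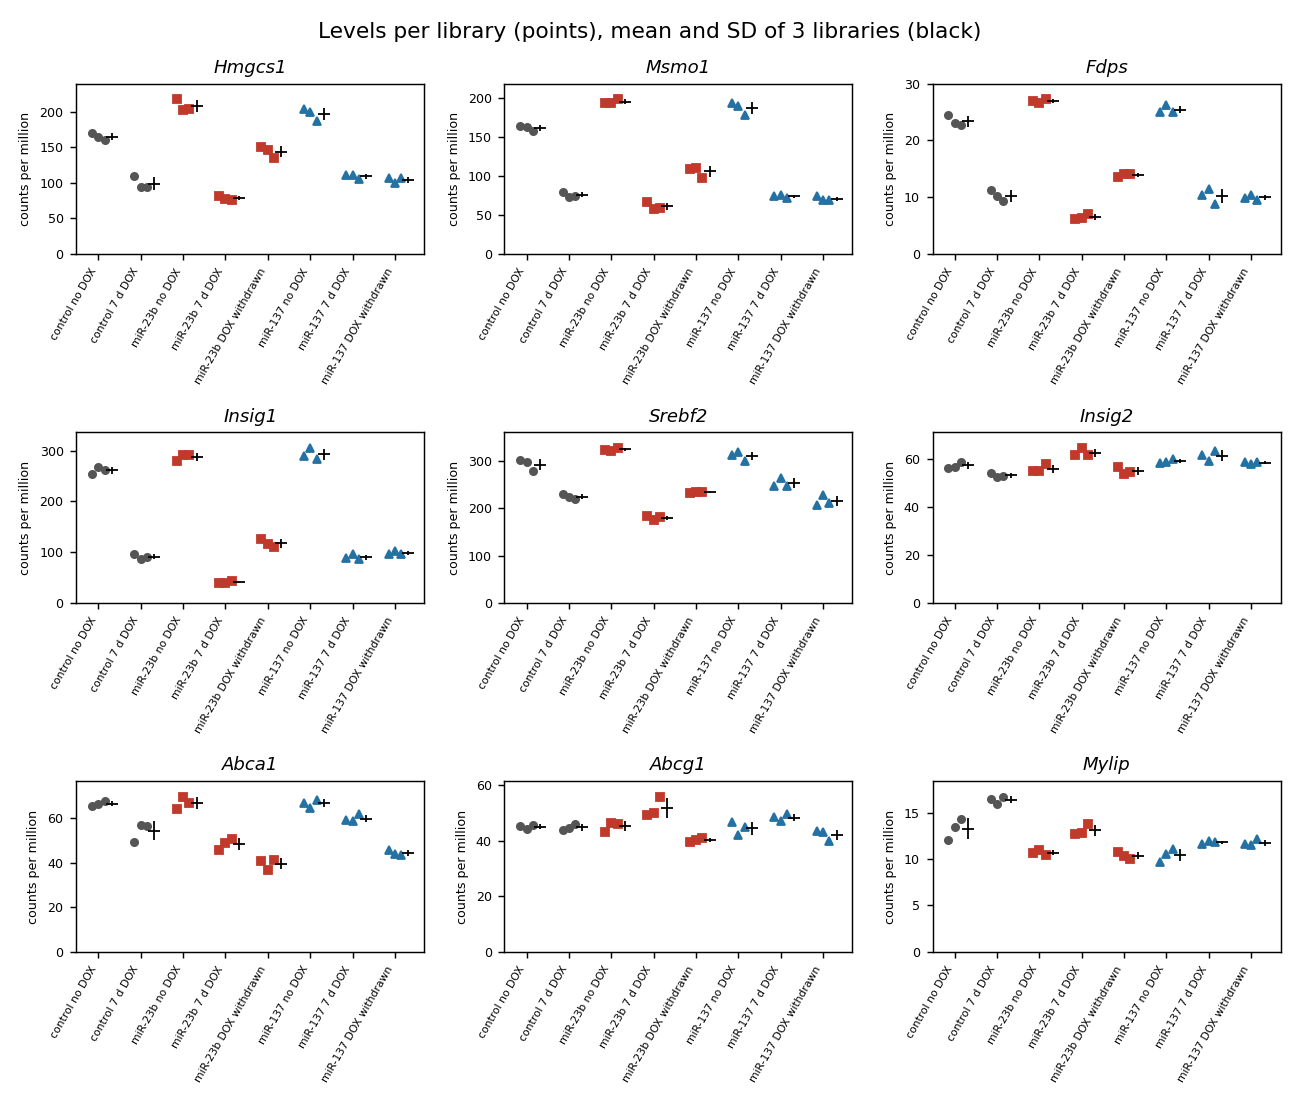
CPM in each library (points) with mean and SD of 3 libraries (black) for 3 enzymes (Hmgcs1, Msmo1, Fdps), 3 SREBP control genes (Insig1, Srebf2, Insig2) and 3 genes of LXR and export (Abca1, Abcg1, Mylip). Insig1 is lowest in the miR-23b libraries with DOX, Insig2 stays between 52.6 and 64.7 CPM in all 24, and Abca1 is lowest after withdrawal in both microRNA lines.

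The lines also differed in level before DOX. Without DOX, 13 of 18 enzymes were higher in the miR-23b line than in the control line and the other 5 were not called, with a median of 0.23. Over the members 15 were higher and 2 lower, where 6.37% of all genes were called and 3.59% called higher. Hmgcs1 was 208 ± 8.6 against 165 ± 5.0 CPM (log2 fold change 0.33 ± 0.044 SE, edgeR adjusted p = 4.8e-06), Lss 157 ± 3.0 against 128 ± 5.2 CPM (log2 fold change 0.29 ± 0.034 SE, edgeR adjusted p = 6.6e-07) and Sqle 219 ± 2.5 against 180.0 ± 2.9 CPM (log2 fold change 0.28 ± 0.035 SE, edgeR adjusted p = 1.1e-06). Insig1 and Srebf2 were higher by 0.14 ± 0.040 and 0.15 ± 0.035 SE, and Mylip and Nr1h2 were lower, with differences of -0.31 ± 0.075 and -0.22 ± 0.054 SE. The count of 17 members dropped to 11 without replicate 2 of the untreated control libraries. In the miR-137 line, 8 members were higher (Hmgcs1, Sqle, Lss, Cyp51, Msmo1, Nsdhl, Sc5d and Insig1) and Mylip was lower, where 2.7% of all genes were called and 1.89% called higher; Hmgcs1 differed by 0.25 ± 0.044 SE. The same untreated libraries are the base of each line's response to DOX, so these values and the falls share samples.

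With DOX present in both lines, the miR-23b line was lower than the control line for 11 of 18 enzymes and higher for 3 (Tm7sf2, Hsd17b7 and Dhcr7), and 27 members differed, against 52.2% of all genes. The levels of Insig1 were 40.4 against 91.2 CPM (log2 fold change -1.18 ± 0.051 SE, edgeR adjusted p = 4.5e-21) and those of Srebf1 134 against 209 CPM (log2 fold change -0.64 ± 0.039 SE, edgeR adjusted p = 8.6e-17). For Hmgcs1 the values were 78.4 and 98.6 CPM (log2 fold change -0.33 ± 0.050 SE, edgeR adjusted p = 6.4e-07). The miR-137 line with DOX differed from the control line with DOX for 9 members, a share like the 27.3% of all genes. Mvk, Mvd and Mylip were lower, and Hmgcs1, Sqle, Tm7sf2, Insig2, Srebf2 and Abca1 higher, with differences from -0.47 (Mylip) to 0.47 (Tm7sf2). Some of these calls were lost under alternative analyses. That of Mvk was lost with DESeq2 (adjusted p = 0.106). With no filter on low counts and with only the groups compared, Mvk (edgeR adjusted p = 0.186 and 0.093) and Mvd (0.056 and 0.0502) were not called. Without replicate 1 of the miR-137 libraries with DOX, 4 members were called. Insig1, the strongest responder, did not pass there (-0.02 ± 0.046 SE, adjusted p = 0.8).

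The last question was whether the sterol genes returned once DOX was removed. In the miR-23b line, 15 of 18 enzymes were higher after withdrawal than on DOX, with a median of 0.43, and 21 members were higher and 7 lower, where 52.2% of all genes were called and 26.4% called higher. Hmgcs1 rose to 150.0, 145 and 135 CPM (log2 fold change 0.87 ± 0.049 SE, edgeR adjusted p = 1e-17), Fdps to 13.5, 14.1 and 14.1 CPM (log2 fold change 1.101 ± 0.090 SE, edgeR adjusted p = 3.9e-13) and Insig1 to 125, 116 and 109 CPM (log2 fold change 1.54 ± 0.051 SE, edgeR adjusted p = 9.6e-25). Srebf1 and Srebf2 rose by 0.45 ± 0.039 and 0.38 ± 0.037 SE. Of the 7 genes that had risen with DOX, 6 came down, with changes for Insig2 of -0.19 ± 0.040, Scap of -0.24 ± 0.046, Mbtps1 of -0.09 ± 0.029, Mylip of -0.33 ± 0.076, Abcg1 of -0.36 ± 0.050 and Nr1h3 of -0.73 ± 0.16 SE.

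The return was partial. Of the log2 fall with DOX, the 17 enzymes that had fallen regained a median of 47.5%, from -49.2% in Tm7sf2 to 82.7% in Mvk, with 62.1% for Hmgcs1 and 54.3% for Insig1. Against the untreated cells, 16 of 18 enzymes were still lower after withdrawal, with a median of -0.53, and all 25 members called were lower, where 39.8% of all genes were called and 20.6% called lower. Mvk and Ebp were the 2 enzymes not called (-0.10 ± 0.054 and 0.06 ± 0.044 SE). Insig1 differed from the untreated level by -1.30 ± 0.042 SE. The enzymes' median in the control line on DOX was -0.64; these 2 values were not tested against each other.

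In the miR-137 line the enzymes hardly moved on withdrawal. Against DOX, 2 enzymes were higher (Mvd by 0.22 ± 0.067 and Cyp51 by 0.11 ± 0.044 SE) and 1 was lower (Tm7sf2, -0.42 ± 0.085 SE), with a median over the 18 of 0.05, and 9 of 33 members were called where 29.5% of all genes were. Hmgcs1 was at 107, 99.3 and 106 CPM (log2 fold change -0.06 ± 0.047 SE, edgeR adjusted p = 0.35), and Insig1 reached 96.8, 102 and 95.6 CPM (log2 fold change 0.12 ± 0.045 SE, edgeR adjusted p = 0.036). Srebf1 and Srebf2 fell further, with changes of -0.17 ± 0.037 and -0.23 ± 0.035 SE. The median share of the fall regained by the 16 enzymes that had fallen was 4.74%. Against untreated cells 17 of 18 enzymes were lower, with a median of -0.77, and 25 members were lower and 2 (Mbtps1 and Nr1h3) higher, where 43.4% of all genes were called and 21.7% called lower.

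The lines differed in this return. With its sign, the change on withdrawal was higher in the miR-23b line than in the miR-137 line for 14 of 18 enzymes. The same held for 20 of 33 members in all, with 3 (Scap, Mylip and Nr1h3) the other way, where 34.4% of all genes were called. Tm7sf2 is among the 14, but it changed by -0.11 in the miR-23b line and fell in the miR-137 line. This comparison was chosen after the data were seen. The differences were 1.42 ± 0.068 SE for Insig1, 1.14 ± 0.12 SE for Fdps, 0.93 ± 0.068 SE for Hmgcs1 and 0.85 ± 0.066 SE for Msmo1. Each line's fall with DOX and its change on withdrawal share the libraries taken on DOX.

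Abca1 did not return in either line. It was lower on DOX and lower still after withdrawal, at 40.7, 36.6 and 41.2 CPM in the miR-23b line (log2 fold change -0.29 ± 0.054 SE, edgeR adjusted p = 2.3e-05) and 45.6, 43.7 and 43.2 CPM in the miR-137 line (log2 fold change -0.43 ± 0.049 SE, edgeR adjusted p = 8.1e-09). In each line the 3 withdrawn libraries lay below all 6 others of that line. Against untreated cells the change was -0.76 ± 0.052 SE in the miR-23b line and -0.59 ± 0.049 SE in the miR-137 line. Abcg1 also ended below its level on DOX in both lines (-0.36 ± 0.050 and -0.20 ± 0.048 SE), and against untreated cells it was lower in the miR-23b line (-0.17 ± 0.052 SE) and not called in the miR-137 line (-0.08 ± 0.049 SE). Nr1h2 stayed low in both (-0.28 ± 0.057 and -0.42 ± 0.053 SE against untreated cells).

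**Figure D4:**
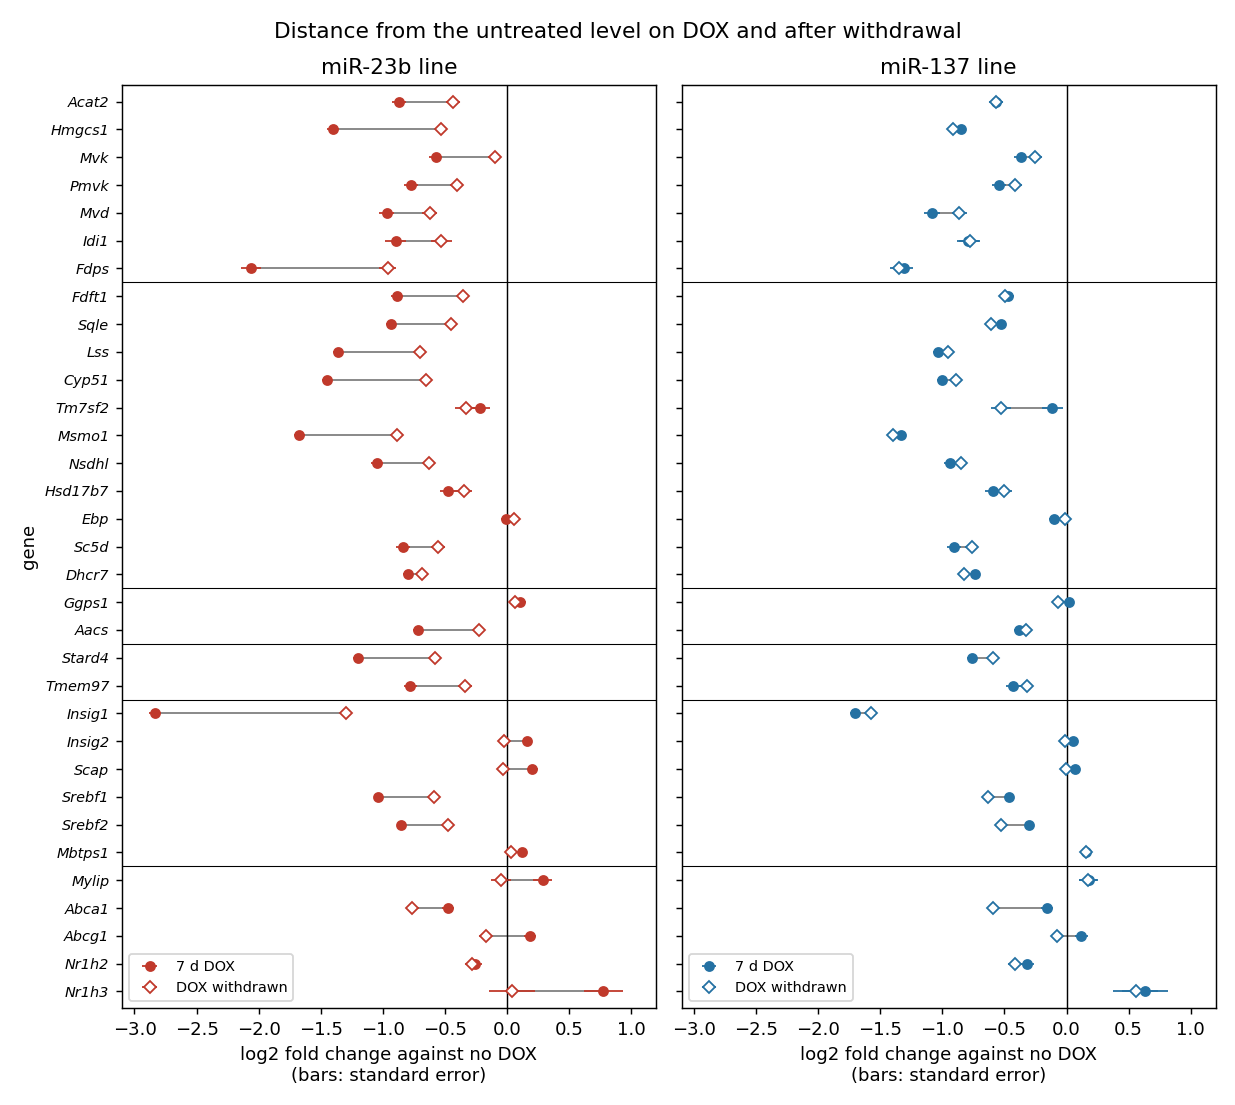
Log2 fold change against untreated cells of the same line (bars are standard errors) on DOX (filled circles) and after withdrawal (open diamonds) for each gene, with the miR-23b line on the left and the miR-137 line on the right. In the miR-23b line most enzymes move part of the way back to 0 (Insig1 from -2.83 to -1.30), in the miR-137 line most stay in place, and Abca1 moves away from 0 in both.

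The members with a seed match responded as follows. Insig1, with matches to both miR-24-3p and miR-137-3p, fell in the control line too, where the induced loci stayed low, and its response differed from that one by -1.32 ± 0.065 SE in the miR-23b line and -0.18 ± 0.061 SE in the miR-137 line. Stard4, with 2 matches to miR-137-3p, differed from the control response by -0.15 ± 0.052 SE in the miR-137 line, which was not called (edgeR adjusted p = 0.051) but was under 4 of 7 alternative analyses, and by -0.59 ± 0.053 SE in the miR-23b line. Ggps1, with a miR-24-3p match, was slightly higher with DOX in the miR-23b line (0.11 ± 0.043 SE), and Sc5d, with a miR-27b-3p match, changed by -0.84 ± 0.055 and -0.91 ± 0.054 SE in the miR-23b and miR-137 lines, which differed from the control response by -0.28 ± 0.078 and -0.35 ± 0.077 SE. Hsd17b7, with a miR-137-3p match, changed by -0.48 ± 0.063 and -0.59 ± 0.066 SE in these lines, and neither difference from the control response was called (-0.14 ± 0.091 and -0.26 ± 0.094 SE). Abca1, with a miR-27b-3p match, fell more in the miR-23b line than in the control line (-0.18 ± 0.069 SE, edgeR adjusted p = 0.033), a call lost with no filter on low counts (adjusted p = 0.067) and with limma on log2(TPM + 1) (-0.12, adjusted p = 0.34). Ebp and Ggps1 held 2 and 3 CCAAT boxes in their promoter windows and were not called lower in any line.

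Neighbouring pathways were read from lists of related genes. Their counts stand against 37.8%, 57.4% and 42.9% of all genes called with DOX in the control, miR-23b and miR-137 lines, and 52.2% on withdrawal in the miR-23b line. SREBP1 is known to control fatty acid synthesis. Of 12 genes listed for that process, 10 were lower and 1 higher with DOX in the control line (median -0.40), 11 were lower in the miR-23b line (median -0.59), and 10 were lower and 2 higher in the miR-137 line (median -0.46). The 12 include Mlxipl, the gene of a transcription factor. Its mean without and with DOX was 624 and 665 CPM in the control line, 490 and 384 CPM in the miR-23b line, and 580 and 639 CPM in the miR-137 line. The stearoyl-CoA desaturases led. Scd1 changed by -1.52 ± 0.051, -2.54 ± 0.054 and -1.77 ± 0.052 SE in the control, miR-23b and miR-137 lines, and Scd2 by -0.97 ± 0.032, -2.43 ± 0.034 and -1.13 ± 0.032 SE. On withdrawal 9 of the 12 rose and 1 fell in the miR-23b line (median 0.38), and the median in the miR-137 line was -0.05. With DOX most of these genes fell in each line, as did most of the sterol enzymes.

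The 12 genes of the sterol machinery of the endoplasmic reticulum went both ways: 1 was lower and 5 higher in the control line, 2 and 5 in the miR-23b line, where the share called was close to that of all genes, and 3 and 5 in the miR-137 line. Erlin2, which takes part in the degradation of sterol-regulated proteins, changed by -0.11 ± 0.033, -0.79 ± 0.034 and -0.09 ± 0.033 SE in the control, miR-23b and miR-137 lines. Sec24d, a coat protein of vesicles leaving the endoplasmic reticulum, was higher in the control and miR-137 lines (0.32 ± 0.042 and 0.38 ± 0.041 SE) and not called in the miR-23b line (-0.09 ± 0.043 SE), whose response differed from that of the control line by -0.41 ± 0.060 SE. Genes of sterol transport and esterification were mixed, with 5 lower and 2 higher of 16 tested in the control line, 7 and 7 in the miR-23b line, and 6 and 3 in the miR-137 line. Soat1, which esterifies cholesterol for storage, changed by -0.65 ± 0.031, -1.39 ± 0.032 and -0.58 ± 0.031 SE in the control, miR-23b and miR-137 lines. Npc2, a carrier of cholesterol out of lysosomes, changed by -0.88 ± 0.046, -1.15 ± 0.048 and -0.89 ± 0.047 SE in the control, miR-23b and miR-137 lines. Lipa, the lysosomal lipase that frees cholesterol from its esters, changed by -0.64 ± 0.051, 0.34 ± 0.046 and -0.45 ± 0.049 SE in the same lines, and the miR-23b response differed from the control response by 0.98 ± 0.069 SE.

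Of 12 tested genes of oxysterol metabolism and LXR partners, 5 were called in the control line, all lower, while 4 were lower and 5 higher in the miR-23b line, and 4 lower and 2 higher in the miR-137 line. Lpcat3, a phospholipid-remodelling LXR target, changed by -0.31 ± 0.044, -0.56 ± 0.045 and -0.23 ± 0.044 SE in the control, miR-23b and miR-137 lines. Arl4c, of the same list, went the other way in the miR-23b line, with a change of 0.49 ± 0.067 SE. Its response differed from that of the control line by 0.75 ± 0.098 SE in the miR-23b line and 0.38 ± 0.099 SE in the miR-137 line. Of 13 isoprenoid users, which draw on farnesyl diphosphate for prenylation, ubiquinone or dolichol, 2 were lower and 2 higher in the control line, 1 and 4 in the miR-23b line, and 2 and 4 in the miR-137 line, shares below or near those of all genes called. Their medians lay between 0.02 and 0.06 in the 3 lines, where the enzymes' medians lay between -0.89 and -0.64.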

How the data were processed

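RNA was sequenced from 24 βTC3 libraries made with a stranded poly(A) kit, per the labels' protocols. Without giving roles, the submitters' processing notes list RSEM 1.2.19, featureCounts, STAR 2.4.0g, cutadapt 1.3 and HTSeq 0.6.1, and the builds GRCm38 and mm10. The authors deposited raw counts per gene, whose values in the table of the whole series and in the sample files were identical, and a table of TPM. In the deposited counts, reads that were not unique (25.4% to 27.7% of each library's entries), lay in no feature (9.62% to 12.1%) or were ambiguous (0.741% to 0.779%) stand in rows that name no gene and were left out. No label or header states the strand setting of the counting. Hmgcs1, Idi1, Fdft1, Lss, Cyp51, Ggps1, Scap and Srebf1 overlap a gene on the other strand, by 109 (Srebf1) to 985 (Scap) exon bases. In those shared bases, reads of the member and of the other gene may not have been told apart. Tm7sf2 shares 532 exon bases with Vps51 on the same strand.

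Counts were tested with edgeR 4.0.16 in R 4.3.3: filterByExpr kept 14866 genes, TMM scaling was used, 8 group means were fitted to all 24 libraries, and quasi-likelihood F tests were adjusted by Benjamini-Hochberg over all genes tested, with calls below 0.05. CPM are TMM-scaled. The common coefficient of biological variation was 3.00%. All 33 members were named. Genes of related lists could be named if called and reaching 5 CPM in the higher group. Per comparison and list, up to 2 of these with the largest change qualified. Not all that qualified are named, and no isoprenoid user is. The members and lists were chosen with earlier results of these data known. Alternatives were RLE and upper quartile scaling, DESeq2 1.42.0, no low-count filter, only the groups compared, limma 3.58.1 on log2(TPM + 1), the replicate number as a block, and leaving out each library. Scripts were tested on simulated counts. Correlations between same-numbered libraries, in deviations from their group means, were at most 0.112 in any comparison, so numbers were not taken as pairs. In some comparisons every such correlation was above 0, as between the miR-23b and control lines without DOX (0.074, 0.071 and 0.031). Replicates of a group differed by more than sampling noise.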

Additional observations from a re-analysis of the deposited data

Results flagged for a closer look

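Each value here is a difference between 2 lines in the log2 fold change of 1 member, tested as an interaction with edgeR's quasi-likelihood test and adjusted over all genes, and each passed the threshold. Responses with a common line share its libraries, so these comparisons are not independent of each other.

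Between the miR-23b line and the control line, the response to DOX differed for 26 of the 33 members, against 37.6% of all genes. The differences below 0, where the miR-23b line fell further or rose less, were Insig1 -1.32, Fdps -0.87, Cyp51 -0.67, Hmgcs1 -0.66, Stard4 -0.59, Msmo1 -0.58, Lss -0.57, Srebf1 -0.56, Sqle -0.51, Srebf2 -0.47, Fdft1 -0.46, Tmem97 -0.43, Aacs -0.42, Mvk -0.39, Pmvk -0.39, Acat2 -0.35, Nsdhl -0.33, Sc5d -0.28, Mvd -0.23 and Abca1 -0.18. Above 0 were Nr1h3 0.66, Tm7sf2 0.30, Scap 0.29, Insig2 0.27, Abcg1 0.19 and Ggps1 0.16.

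Between the miR-137 line and the control line, 8 members differed, against 10.7% of all genes. Below 0 were Sc5d -0.35, Mvd -0.34, Msmo1 -0.25, Lss -0.24, Cyp51 -0.22, Nsdhl -0.22 and Insig1 -0.18. Above 0 was Tm7sf2 0.40.

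Between the miR-23b line and the miR-137 line, 17 members differed, against 35.2% of all genes. Below 0 were Insig1 -1.13, Fdps -0.75, Srebf1 -0.57, Srebf2 -0.55, Hmgcs1 -0.55, Cyp51 -0.45, Stard4 -0.44, Fdft1 -0.41, Sqle -0.41, Tmem97 -0.34, Msmo1 -0.34, Aacs -0.34, Lss -0.33, Abca1 -0.32, Acat2 -0.30, Pmvk -0.23 and Mvk -0.20.

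The change on withdrawal, the withdrawn cells against those on DOX, differed between the microRNA lines for 23 members, against 34.4% of all genes. Above 0, where the miR-23b line rose more or fell less, were Insig1 1.42, Fdps 1.14, Hmgcs1 0.93, Msmo1 0.85, Cyp51 0.68, Srebf1 0.62, Srebf2 0.61, Lss 0.58, Sqle 0.56, Fdft1 0.55, Stard4 0.45, Aacs 0.43, Acat2 0.43, Mvk 0.36, Idi1 0.35, Nsdhl 0.33, Tmem97 0.33, Tm7sf2 0.31, Pmvk 0.24 and Dhcr7 0.20. Tm7sf2 rose in neither line. Below 0 were Nr1h3 -0.66, Mylip -0.32 and Scap -0.17.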

How the results depend on the processing

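Counts of members called were within 1.5 times of the reported ones under RLE and upper quartile scaling, DESeq2, no filter on low counts, only the groups compared and the replicate block; for the 3 DOX responses, the miR-23b response against the other lines and the 4 withdrawal contrasts this also held for limma on log2(TPM + 1) and for each library left out. With limma on log2(TPM + 1), 5 members in place of 8 differed between the miR-137 and control responses, and without DOX 11 in place of 17 differed between the miR-23b and control lines and 5 in place of 9 between the miR-137 and control lines. On that scale the sign turned for Ebp in the miR-23b line with DOX (0.15), Mbtps1 in the miR-23b response minus the control response (0.10) and minus the miR-137 response (0.093), and Dhcr7 on withdrawal in the miR-23b line (-0.018); the cause was not tested. Leaving out 1 library at a time gave 5 to 9 members for the miR-137 response minus the control response (5 without miR-137 7 d DOX replicate 1 or 3), 11 to 19 for the miR-23b line against the control line without DOX (11 without control no DOX replicate 2), and 4 to 9 for the miR-137 line against the control line on DOX (4 without miR-137 7 d DOX replicate 1). The replicate block gave 26 members for the miR-23b response minus the control response, as without it, but Tm7sf2 was no longer called there (edgeR adjusted p = 0.052) nor on withdrawal between the microRNA lines (0.054). The first of these calls was lost under all 7 alternatives (adjusted p = 0.052 to 0.117) and the second under 6 (0.052 to 0.094). Of the 7, 5 also ended the calls of Insig2 with DOX in the control line (0.059 to 0.446) and of Nsdhl between the miR-137 and control lines without DOX (0.059 to 0.314), and 4 ended those of Sqle in the miR-137 line (0.056 to 0.145) and Dhcr7 in the miR-23b line (0.088 to 0.103) against the control line on DOX. The share of all called genes that were higher moved by over 10 percentage points under limma on log2(TPM + 1): from 50.2% to 67.0% for the miR-23b line with DOX, 48.3% to 69.9% and 47.7% to 73.9% for its response minus the control and miR-137 responses, 50.6% to 27.8% for its withdrawal against DOX, 49.9% to 39.5% for miR-137 withdrawal against no DOX, 51.5% to 29.0% for the difference in withdrawal, 56.3% to 33.7% for the miR-23b line against the control line without DOX, and 49.5% to 64.0% and 53.7% to 41.6% for the miR-23b and miR-137 lines against the control line on DOX. It moved from 55.2% to 66.5% for the miR-137 response minus the control response with no filter, and from 69.9% to 57.1% for the miR-137 line against the control line without DOX when only those groups were fitted. Depth limits Nr1h3 most, the member with the fewest reads per length.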
